A study of Mus musculus with 11 samples.

Results

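*Foxo1*, *Foxo3* and *Foxo4*, which encode FoxO transcription factors, and 5 genes listed as FoxO-linked quiescence targets, *Txnip*, *Ccng2*, *Bcl6*, *Cited2* and *Sesn3*, were followed across all libraries of the series. They were taken as a named set, put together with earlier results of these data known, and they are 8 of the 29307 genes in the count table. All 8 had enough counts to be tested, among 12905 tested genes. The libraries came from hepatic sinusoidal endothelial cells (ECs) of 5 germ-free (GF) and 6 conventionally raised (CONV-R) wild-type C57BL/6J mice, 1 library per mouse. GF mice were kept in sterile isolators without any microbiota, and CONV-R mice carried a specific-pathogen-free gut microbiota. Both groups came from the same colonies, ate the same diet and were untreated males aged 10 to 12 weeks. The ECs were enriched on CD146 beads and then sorted for CD31, CD105 and CD146, and 20 ng of RNA per mouse was amplified before sequencing. The authors reported fewer sorted ECs and less extracted RNA from GF than from CONV-R livers. They also reported low viability of the sorted cells. The part of cell yield, RNA amount and viability in the values below was not tested. The comparison asks how the absence of gut microbes bears on the transcripts of these genes. It concerns transcripts, since the amount, phosphorylation and location of FoxO proteins were not measured in these libraries.

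FoxO proteins are forkhead transcription factors that are switched mainly after translation. Insulin, growth factors and angiopoietin activate PI3K and AKT, and AKT phosphorylates the FoxO proteins, which are then held in the cytoplasm by 14-3-3 proteins. When AKT activity is low they enter the nucleus and switch on genes of growth arrest, stress resistance, autophagy and fuel use. In endothelium, FOXO1 restrains proliferation and metabolic activity and keeps ECs quiescent. Among the 5 targets, *Txnip* encodes the thioredoxin-binding arrestin that limits glucose uptake, *Ccng2* an unconventional cyclin that restrains the cell cycle, *Bcl6* a transcriptional repressor, *Cited2* a coactivator-binding protein that limits hypoxia-inducible transcription, and *Sesn3* a sestrin that curbs mTORC1 and oxidative stress.

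The promoter of *Txnip* is shown because it holds a FoxO core motif and the sugar-response motif of the same gene, and a short stretch of *Ccng2* because it holds the other FoxO-type motif searched. RefSeq promoters on GRCm38.p6, 250 bases before to 50 bases after each start, matched 7 of the 8 genes. *Foxo4* has no entry. The capitals mark GTAAACA, the core sequence that FoxO proteins bind, and the 2 copies of CACGAG in *Txnip*, and CAAAACA, the insulin-response type of FoxO motif, in *Ccng2*.
Txnip, chr3:96557807-96557956, plus strand: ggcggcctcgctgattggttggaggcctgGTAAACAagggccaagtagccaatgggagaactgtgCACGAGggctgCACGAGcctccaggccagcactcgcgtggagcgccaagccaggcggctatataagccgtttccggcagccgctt
Ccng2, chr5:93267543-93267572, plus strand: gggcgtcgcagactCAAAACAaaaacaagg
Both stretches end at the base before the RefSeq start. In *Txnip*, GTAAACA lay 121 to 115 bases before the start, and the paired CACGAG copies, 5 bases apart, 85 to 69 bases before it. In *Ccng2*, CAAAACA lay 16 to 10 bases before the start. Searched on both strands, with no overlap between these motifs, GTAAACA was in 3.65% of the 32851 RefSeq promoters and CAAAACA in 6.28%, so both are common. A pair of CACGAG copies 5 bases apart was in 1 of the 32851 promoters, that of *Txnip*, from whose sequence the search was taken. Among the 7 genes, each motif was in 1. In the GENCODE M21 annotation the *Txnip* stretch lies outside *Txnip* and inside an exon of the antisense gene *Gm15441*, and the *Ccng2* stretch lies in an exon of a longer *Ccng2* transcript. These matches describe letters, and no binding was measured.

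The libraries held between 7242717 and 16164588 counts. GF replicate 2 had counts on 22674 genes against 15456 to 18495 in the others. CONV-R replicate 3 had a median correlation of 0.952 with its own group across genes, where the other CONV-R libraries had 0.972 to 0.978 and the GF libraries 0.951 to 0.959. The sinusoidal label held, since all 12 markers of sinusoidal ECs were present, with summed levels of 34478 to 48012 CPM in GF and 35436 to 44158 CPM in CONV-R. CPM are counts divided by the TMM-scaled library totals and brought to one size for all libraries. None of these 12 markers was called (edgeR, 5 with an unadjusted p under 0.05, and 0 calls by DESeq2). The 10 pan-endothelial markers gave 1 call, *Erg*, which was lower in GF ECs by edgeR (adjusted p = 0.0122) and was not called with the authors' normalized values (adjusted p = 0.0922, limma). The 14 Kupffer cell markers were present in every group, with 8 higher in GF ECs, 0 lower and summed levels of 715 to 1500 CPM in GF against 488 to 594 CPM in CONV-R. Much of that sum was *Clec1b*, which was not called, with 535 ± 106 CPM (SD, n = 5) in GF and 402 ± 39.6 CPM (SD, n = 6) in CONV-R. The other 13 markers summed to 224 to 998 CPM in GF and 96.2 to 246 CPM in CONV-R, with means of 434 and 150 CPM, and the median Log2FC of the 14 was 1.54. GF replicate 6 held much of this difference, at 998 CPM against 224 to 406 CPM in the other GF libraries. Without it, 4 of the 14 markers were called and their median Log2FC was 0.93. Without CONV-R replicate 2, 4 or 5 the calls were 5, and with the authors' normalized values 1, with 0 lower in each. Summed hepatocyte markers lay at 35.0 to 87.3 CPM in GF and 27.4 to 64.6 CPM in CONV-R, lymphocyte markers at 7.54 to 11.6 and 9.15 to 19.5 CPM, stellate cell markers at 2.09 to 12.3 and 4.58 to 11.1 CPM, and neutrophil markers at 0.136 to 1.64 and 0.723 to 3.93 CPM, with *Elane* at 0 throughout. In these sorted bulk samples, fewer cells of a type and less RNA per cell cannot be told apart.

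*Bcl6* and *Foxo3* rose in GF ECs, by 1.67 times and 1.66 times, and none of the other 6 genes passed the test. The groups were compared with edgeR's quasi-likelihood test over all 12905 genes with Benjamini-Hochberg adjustment, and a gene is called at an adjusted p under 0.05. Of the 8 genes, 2 were called higher in GF ECs (25%) and 0 lower. Over all tested genes, 7.48% were called, 4.8% as higher and 2.67% as lower. At an unadjusted p under 0.05, 4 of the 8 were higher and 0 lower, and DESeq2 called 2 higher and 0 lower, with *Foxo4* lower at an unadjusted p only. The difference (Log2FC, GF relative to CONV-R) was positive for 7 of the 8, with a median of 0.37 where the median of all tested genes was -0.006. Since the 8 were not chosen independently of these data, their share is a description, and with 8 genes 1 call more or less moves it widely.

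**Figure D1:**
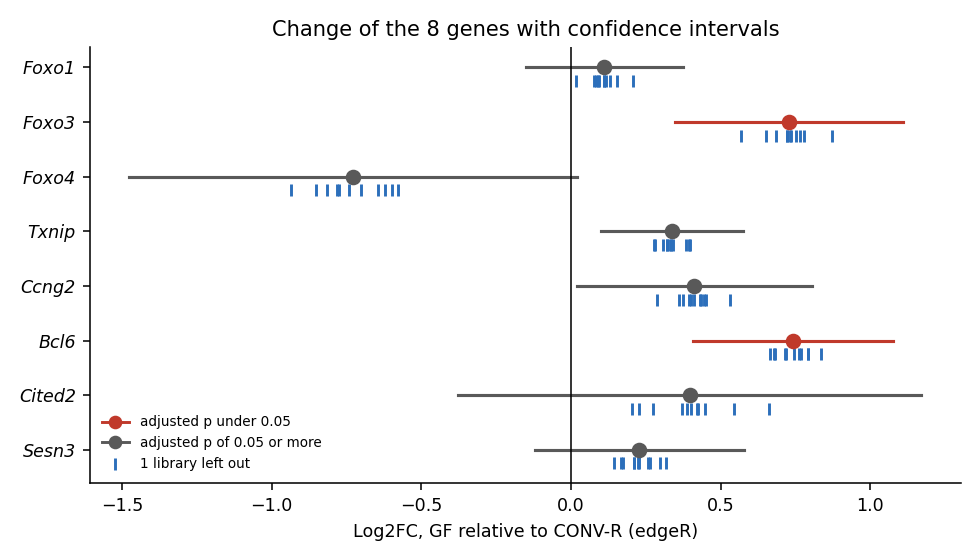
Log2FC of each gene (GF over CONV-R), drawn as the edgeR estimate (point), its 95% interval (line) and the estimates with 1 library left out at a time (ticks below each line). *Bcl6* and *Foxo3*, in red, have an adjusted p under 0.05, and the interval of *Foxo1* spans 0.

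*Foxo1* was by far the most abundant of the FoxO genes and differed little between the groups. Its levels were 309, 259, 247, 253, 280 and 273 CPM in CONV-R replicates 1 to 6, and 364, 292, 276, 210 and 318 CPM in GF replicates 1, 2, 4, 5 and 6. The GF libraries lay on both sides of the CONV-R range, with 2 above it and 1 below it. The group means were 292 ± 56.8 CPM (SD, n = 5) in GF and 270 ± 22.8 CPM (SD, n = 6) in CONV-R. The Log2FC was 0.11 with a 95% interval from -0.15 to 0.37 (adjusted p = 0.646, edgeR), and with 1 library left out it ran from 0.02 (without GF replicate 1) to 0.21 (without GF replicate 5). *Foxo1* lies at chr3:52268336-52353221 on GRCm38 and shares 674 exon bases with the antisense gene *Gm20402*, on which 0 counts fell.

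*Foxo3*, the stress-responsive relative of *Foxo1*, was higher in GF ECs. CONV-R replicates 1 to 6 had 64.9, 63.0, 41.5, 59.2, 59.4 and 56.5 CPM, and GF replicates 1, 2, 4, 5 and 6 had 135, 96.8, 107, 55.4 and 81.7 CPM. Of the 5 GF libraries, 4 lay above every CONV-R library, and GF replicate 5 lay inside the CONV-R range. The means were 95.0 ± 29.4 CPM (SD, n = 5) and 57.4 ± 8.35 CPM (SD, n = 6), and the Log2FC was 0.73 (SE 0.18), with a 95% interval from 0.35 to 1.11 (adjusted p = 0.0199, edgeR). The call rests in part on single libraries. Without GF replicate 1, the library with the highest level, the Log2FC was 0.57 (adjusted p = 0.0614, edgeR), and without CONV-R replicate 3 and GF replicate 2 together it was 0.65 (adjusted p = 0.0533, edgeR), while over the alternatives the adjusted p ran from 0.00229 to 0.139. Kupffer cell markers were higher in the same group, and their part in the result was not tested. Without GF replicate 6, which had the highest sum of these markers, the Log2FC of *Foxo3* was 0.78 (adjusted p = 0.029, edgeR). *Foxo3* lies on the minus strand at chr10:42181841-42276755.

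*Foxo4* was close to the limit of counting, with 11 to 67 counts per library. It had 2.33, 3.55, 5.77, 3.45, 5.41 and 4.58 CPM in CONV-R replicates 1 to 6, and 3.05, 2.61, 1.43, 3.97 and 1.49 CPM in GF replicates 1, 2, 4, 5 and 6. The groups overlapped, and 2 of the 5 GF libraries lay below the lowest CONV-R library. With means of 2.51 ± 1.08 CPM (SD, n = 5) and 4.18 ± 1.31 CPM (SD, n = 6), the Log2FC was -0.73 with a 95% interval from -1.48 to 0.02 (adjusted p = 0.231, edgeR). The interval reaches 0, and counts this low leave it wide. *Foxo4* lies at chrX:101254528-101260873.

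Per length of exon, *Foxo3* made up a larger part of the FoxO transcripts in GF ECs. Among the RPKM (CPM per kilobase of exon) of the 3 genes, *Foxo3* took 29.3%, 27.1%, 30.4%, 22.4% and 22.5% in GF replicates 1, 2, 4, 5 and 6, and 15.4% to 21.2% in the CONV-R libraries. *Foxo1* took 68.7% to 76.6% in GF and 76.2% to 80.0% in CONV-R, and *Foxo4* 0.885% to 3.49% and 1.49% to 4.65%. The *Foxo3* shares of the groups did not overlap. GF replicate 5, whose *Foxo3* level was inside the CONV-R range, also had the lowest *Foxo1* level of all libraries, and its ratio of *Foxo3* to *Foxo1* counts was 0.264. That ratio lay between 0.257 and 0.387 in GF and between 0.168 and 0.243 in CONV-R. These shares are a description drawn from values already shown, and the difference between the 2 fold changes was not tested.

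**Figure D2:**
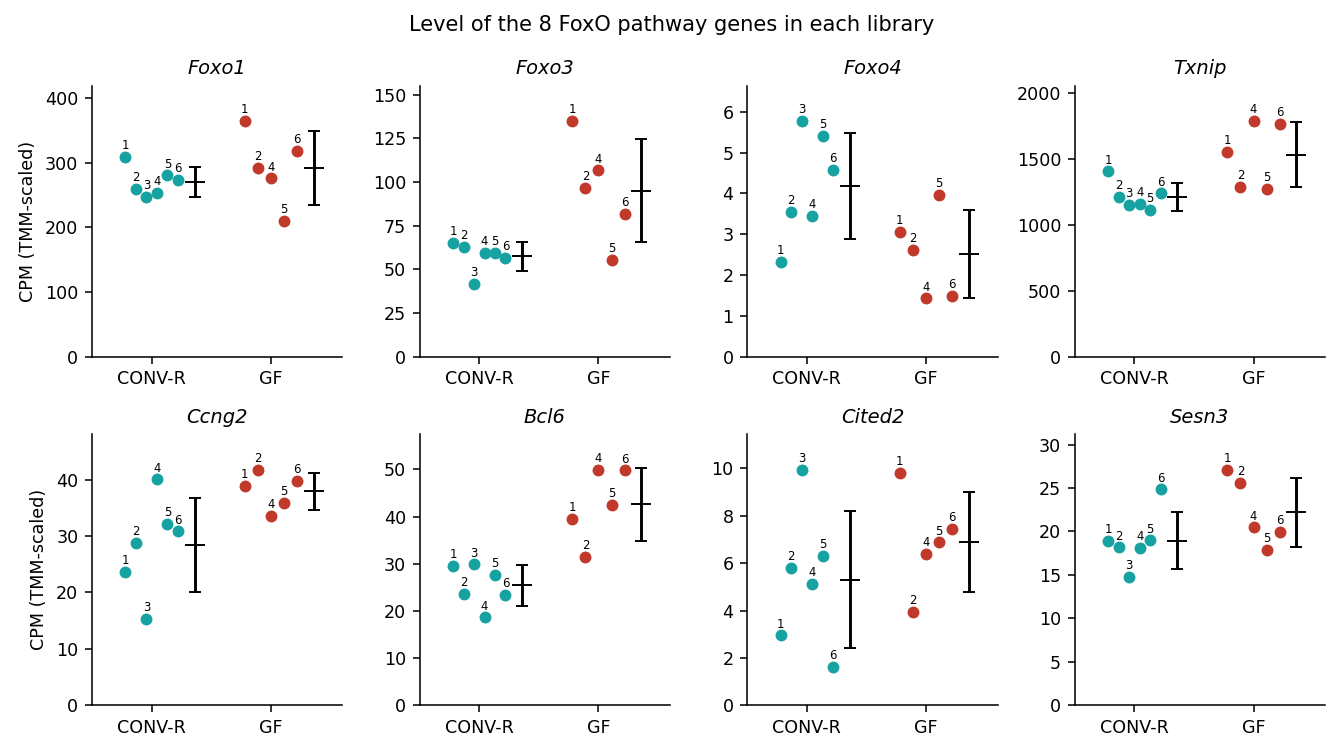
CPM of the 8 genes in each library (points, numbered by replicate), with the mean and SD of each group beside them and each vertical axis starting at 0. For *Bcl6* every GF library lies above every CONV-R library, and for *Foxo3* 4 of 5 GF libraries do.

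Of the 5 targets, *Bcl6* was the only gene whose groups did not overlap. It had 29.6, 23.6, 29.8, 18.6, 27.6 and 23.4 CPM in CONV-R replicates 1 to 6, and 39.4, 31.4, 49.9, 42.4 and 49.8 CPM in GF replicates 1, 2, 4, 5 and 6. The gap was narrow, between 29.8 CPM in CONV-R replicate 3 and 31.4 CPM in GF replicate 2, the same 2 libraries that stood apart above. Groups that did not overlap were seen for 5.59% of all tested genes. The means were 42.6 ± 7.75 CPM (SD, n = 5) and 25.4 ± 4.35 CPM (SD, n = 6), and the Log2FC was 0.74 (SE 0.16), with a 95% interval from 0.41 to 1.08 (adjusted p = 0.00835, edgeR). By p, *Bcl6* ranked 321 among the 12905 genes. It stayed called with each library left out (adjusted p from 0.00506 to 0.028, edgeR), and without CONV-R replicate 3 and GF replicate 2 the Log2FC was 0.88 (adjusted p = 0.00329, edgeR). Kupffer cell markers were also higher in the group with the higher *Bcl6* levels, and their part in the difference was not tested. Without GF replicate 6 the Log2FC of *Bcl6* was 0.68 (adjusted p = 0.028, edgeR). *Bcl6* lies on the minus strand at chr16:23965052-23988852 and shares 21 exon bases with *Gm37419*.

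*Txnip* was the most abundant of the 8 genes and did not pass the test. CONV-R replicates 1 to 6 had 1404, 1208, 1152, 1155, 1113 and 1237 CPM, and GF replicates 1, 2, 4, 5 and 6 had 1553, 1287, 1784, 1269 and 1763 CPM. All 5 GF libraries lay above the CONV-R median of 1181 CPM, and 3 lay above the highest CONV-R library. The means were 1531 ± 248 CPM (SD, n = 5) and 1211 ± 104 CPM (SD, n = 6), and the Log2FC was 0.34 with a 95% interval from 0.10 to 0.58 (adjusted p = 0.0791, edgeR). The unadjusted interval lay above 0, but the adjusted p missed the threshold. It passed only without GF replicate 5, with a Log2FC of 0.40 (adjusted p = 0.0311, edgeR), and the adjusted p ran from 0.0311 to 0.197 with each library left out. *Txnip* lies at chr3:96557957-96561883 and shares 606 exon bases with the antisense gene *Gm15441*, on which 95 counts fell in all 11 libraries. The sequenced cDNA was double-stranded, so reads in the shared bases cannot be assigned by strand.

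*Ccng2* had the most even levels of the 8 genes within the GF group. GF replicates 1, 2, 4, 5 and 6 had 38.9, 41.7, 33.5, 35.8 and 39.7 CPM, while CONV-R replicates 1 to 6 had 23.6, 28.8, 15.3, 40.0, 32.1 and 30.8 CPM. CONV-R replicate 4 lay within the GF range, the other CONV-R libraries below it. The coefficient of variation was 8.60% in GF and 29.3% in CONV-R, or 19.2% without CONV-R replicate 3, a difference that was not tested. The means were 37.9 ± 3.26 CPM (SD, n = 5) and 28.5 ± 8.35 CPM (SD, n = 6), and the Log2FC was 0.41 with a 95% interval from 0.02 to 0.81 (adjusted p = 0.195, edgeR). *Ccng2* lies at chr5:93267257-93276231.

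*Cited2* and *Sesn3* showed overlapping groups. *Cited2* had 2.95, 5.80, 9.94, 5.14, 6.30 and 1.63 CPM in CONV-R replicates 1 to 6, and 9.81, 3.96, 6.38, 6.87 and 7.46 CPM in GF replicates 1, 2, 4, 5 and 6. The CONV-R libraries enclosed all of the GF values, and the Log2FC was 0.40 with a 95% interval from -0.38 to 1.17 (adjusted p = 0.563, edgeR), at 21 to 151 counts per library. With 1 library left out it ran from 0.20 (without CONV-R replicate 6) to 0.66 (without CONV-R replicate 3). For *Sesn3* the CONV-R libraries had 18.9, 18.2, 14.7, 18.1, 19.0 and 24.8 CPM, and the GF libraries 27.1, 25.6, 20.5, 17.8 and 19.9 CPM in the same order of replicates. GF replicates 1 and 2 lay above the CONV-R range and the others inside it, and the Log2FC was 0.23 with a 95% interval from -0.12 to 0.58 (adjusted p = 0.44, edgeR), or 0.15 without GF replicate 1. *Cited2* lies at chr10:17723218-17725674 and *Sesn3* at chr9:14275067-14333101.

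Levels of the 8 genes can be set beside each other only per length. On the RPKM scale *Txnip* averaged 434 over all libraries, above 99.7% of the tested genes, and *Foxo1* 32.3, above 91.8%. *Foxo3* followed with 9.84, *Ccng2* with 6.00, *Bcl6* with 4.96, *Cited2* with 2.45, *Sesn3* with 1.34 and *Foxo4* with 0.98, which was above 16.0% of the tested genes. Neighbours in the order from *Foxo3* to *Foxo4* had libraries with overlapping levels, while *Txnip*, *Foxo1* and the rest did not overlap. The genes that were called, *Bcl6* and *Foxo3*, stood in the middle of this range, with mean RPKM of 6.36 ± 1.16 (SD, n = 5) in GF and 3.80 ± 0.65 (SD, n = 6) in CONV-R for *Bcl6*, and 12.6 ± 3.89 and 7.58 ± 1.10 for *Foxo3*.

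**Figure D3:**
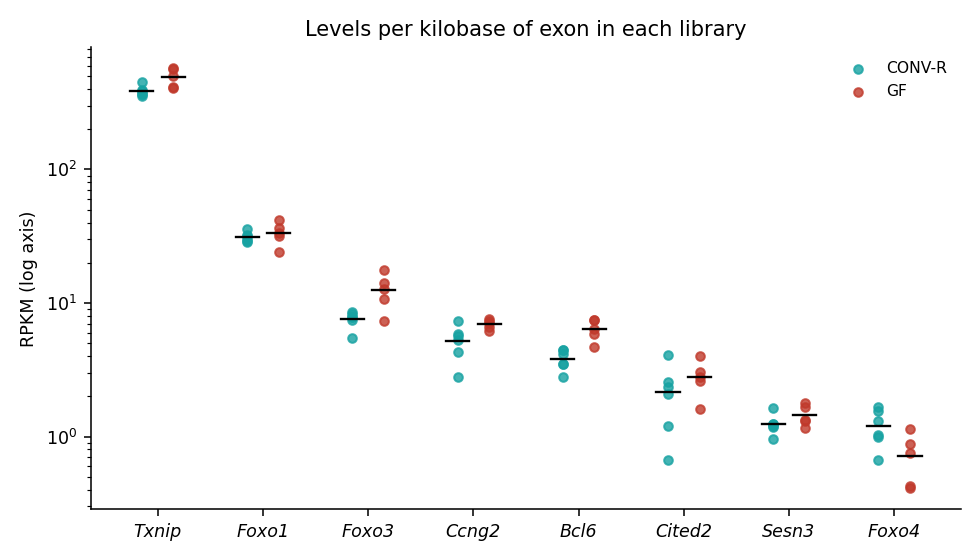
RPKM of the 8 genes in every library on a log axis, ordered by their mean over all libraries, with CONV-R in turquoise, GF in red and black bars at the group means. *Txnip* averages 434 RPKM and *Foxo4* 0.98 RPKM.

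Across the 11 libraries *Foxo1* and *Foxo3* varied together within the groups, whereas *Foxo3* and *Bcl6* did not. The correlation of log2 CPM between *Foxo1* and *Foxo3* was 0.71 over 11 libraries, and 0.81 once each group's mean was taken off. *Foxo3* and *Sesn3* had 0.75 and 0.68 by the same measures. For *Foxo3* and *Bcl6* the correlation was 0.52, and -0.20 without the group means, and GF replicate 1 with the highest *Foxo3* level had the second lowest *Bcl6* level of its group. *Txnip* and *Bcl6* had 0.81 and 0.56, and *Ccng2* and *Bcl6* 0.19 and -0.66. *Txnip* and *Foxo4* ran in opposite directions, with -0.89 and -0.82, although *Foxo4* rests on few counts. These correlations are descriptions over points that share library depth and composition, and no p is given for them.

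**Figure D4:**
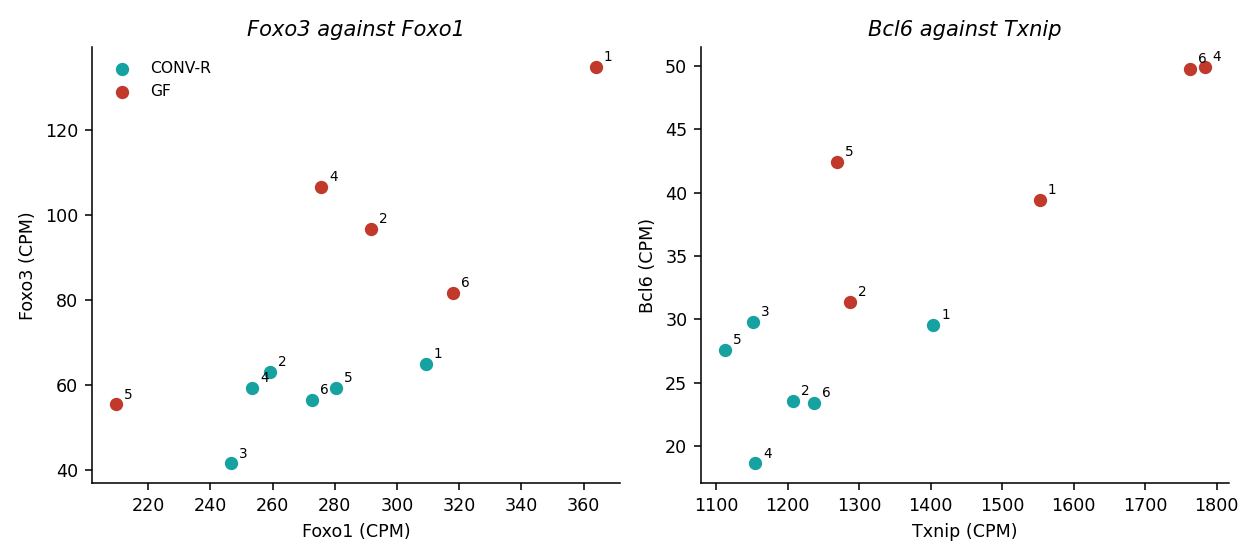
CPM of *Foxo3* against *Foxo1* (left) and of *Bcl6* against *Txnip* (right), 1 point per library, numbered by replicate. In the left panel GF replicate 5 has the lowest *Foxo1* level, 210 CPM, and the axes do not start at 0.

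The genes whose pattern over the 11 libraries was most like that of *Foxo3* were *Capn2*, which encodes a calpain protease (r = 0.97), *Clptm1* (0.95) and *Rps6ka3*, which encodes a ribosomal S6 kinase (0.94). Once each group's mean was taken off, their r was 0.95, 0.92 and 0.88. Of these, *Rps6ka3* was called higher in GF ECs (Log2FC 0.54, adjusted p = 0.0235, edgeR). The genes most like *Bcl6* were *Cst3*, which encodes the protease inhibitor cystatin C (r = 0.95), *Asb8* (0.95) and *Npc2*, which encodes a lysosomal cholesterol carrier (0.93). With the group means taken off, these had 0.89, 0.86 and 0.86. *Cst3* was called higher in GF ECs, with a Log2FC of 0.93 (adjusted p = 0.0126, edgeR). All of these genes were picked as the highest r among 12905 tested genes, with the group difference included. A call in the same direction is therefore partly built into the choice, and so is a high r.

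The genes around FoxO were then read by role. They form 11 lists with 195 genes, of which 191 are in the count table and 173 were tested. Of the 173, 21 were called higher and 1 lower (12.7%), beside 7.48% of all tested genes, and their median Log2FC was 0.06. The lists were made with earlier results known, so their counts describe these genes and give no independent evidence of a direction. The Kupffer cell markers, at a median Log2FC of 1.54, or 0.93 without GF replicate 6, were higher in the same group as the 21 genes, and their part in these counts was not tested.

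Upstream of FoxO, *Insr* was the only called gene. Of 25 tested genes of insulin, angiopoietin and VEGF receptors, PI3K and AKT, 1 was called (4%), beside 7.48% of all tested genes. *Insr*, the insulin receptor gene, had 812 ± 389 CPM (SD, n = 5) in GF and 338 ± 68.9 CPM (SD, n = 6) in CONV-R, with groups that did not overlap and a Log2FC of 1.27 (adjusted p = 0.00266, edgeR). *Tek*, the angiopoietin receptor gene, had a Log2FC of -0.01 (adjusted p = 0.984, edgeR) and *Kdr*, a VEGF receptor gene, of -0.02 (adjusted p = 0.95). Of 29 tested regulators that bind or modify FoxO proteins, edgeR called 0 and DESeq2 1, with 5 at an unadjusted p under 0.05 by edgeR. In lists of this size, neither edgeR count can be told apart from the share of all tested genes. Those with the highest mean CPM, a scale not corrected for length, were *Ywhaz*, a 14-3-3 gene, with a Log2FC of 0.30 (adjusted p = 0.311, edgeR), and *Ctnnb1*, the beta-catenin gene, with -0.02 (adjusted p = 0.953).

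Among further genes described as FoxO targets, the growth arrest list was led by *Cdkn1a*. In it, edgeR called 5 of 19 tested genes higher (26.3%) and 0 lower, beside 7.48% called of all tested genes. DESeq2 called 6 higher and 1 lower. *Cdkn1a*, the p21 inhibitor of cyclin-dependent kinases, had 99.2 ± 16.5 CPM (SD, n = 5) in GF and 17.9 ± 11.2 CPM (SD, n = 6) in CONV-R and a Log2FC of 2.47 (adjusted p = 0.000108, edgeR). *Klf4*, *Klf2* and *Klf6*, Krüppel-like factor genes, rose by 1.03, 0.96 and 0.68, and *Btg2*, an antiproliferative gene, by 0.62 on the log2 scale. *Gadd45a*, a DNA damage and growth arrest gene named after its value was seen, had 4.92 ± 1.55 CPM (SD, n = 5) in GF and 9.91 ± 4.23 CPM (SD, n = 6) in CONV-R and a Log2FC of -1.0 (adjusted p = 0.0586 by edgeR and 0.0208 by DESeq2, and from 0.0208 to 0.216 over the alternatives). *Ccnd2* and *Ccnd1*, the D cyclin genes that FoxO proteins repress, had Log2FC of -0.31 and -0.22 (adjusted p of 0.38 and 0.489, edgeR).

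In the metabolism list, 4 of 8 tested genes rose (50%) and 0 fell, beside 7.48% called of all tested genes, with 5 of its 13 genes too weak to test. *Klf15*, a regulator of amino acid and glucose use, had 10.1 ± 2.80 CPM (SD, n = 5) in GF and 1.55 ± 0.59 CPM (SD, n = 6) in CONV-R, a Log2FC of 2.69 (adjusted p = 3.75e-05, edgeR). *Pnpla2*, which encodes adipose triglyceride lipase, had a Log2FC of 1.5, and *Pdk4*, which encodes a kinase that restrains pyruvate oxidation, of 0.87, with adjusted p of 0.000694 and 0.000917 (edgeR). *Insr* is the fourth, since FoxO proteins are also known to act on it. *Fbxo32*, a ubiquitin ligase gene and classic muscle FoxO target, had a Log2FC of -0.19 (adjusted p = 0.494, edgeR).

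In the stress and autophagy list, 2 of 20 tested genes rose (10%) and 0 fell, near the 7.48% called of all tested genes. They were *Sesn2*, a sestrin gene, with a Log2FC of 1.09 (adjusted p = 0.00588, edgeR) and *Bnip3*, a mitophagy gene, with 1.21 (adjusted p = 0.032). *Bnip3* lost its call in 5 of the 11 fits with 1 library left out (without CONV-R replicate 2, 4 or 6 or GF replicate 2 or 5), with adjusted p from 0.0275 to 0.074 (edgeR), while *Sesn2* kept its call in all 11. *Cat*, which encodes catalase, had 0.10 and *Map1lc3b*, an autophagosome gene, 0.01, and neither was called. Of 7 tested cell death genes, 1 rose (14.3%), a list too short to set against that share. It was *Bcl2l1*, which encodes the survival protein BCL-XL, with a Log2FC of 0.68 (adjusted p = 0.0183, edgeR). *Tnfsf10*, which encodes the death ligand TRAIL, and *Bcl2l11*, which encodes BIM, had -0.30 and -0.14 and were not called.

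The endothelial list held 7 genes that rose and 1 that fell, of 17 tested (47.1%), beside 7.48% called of all tested genes. At an unadjusted p under 0.05, 10 were higher and 3 lower by edgeR. *S1pr1*, the sphingosine-1-phosphate receptor gene, had a Log2FC of 1.72 (adjusted p = 1.1e-07, edgeR), and *Ctgf*, a matricellular gene, of 2.99 (adjusted p = 6.06e-05). *Vcam1*, a leukocyte adhesion gene, rose by 0.90, *Pdgfb*, a pericyte growth factor gene, by 1.39, *Fbn1*, the fibrillin gene, by 1.09 and *Angpt2*, an antagonist of TIE2 and a known endothelial FOXO1 target, by 0.59 on the log2 scale, with *Klf2* as above. *Fbn1* had a Log2FC of 0.72 without GF replicate 1 (adjusted p = 0.0305, edgeR) and was not called with the authors' normalized values (adjusted p = 0.106, limma). *Spry4*, an inhibitor of growth factor signalling, fell by 0.91 on the log2 scale. *Cdh5* and *Eng* had Log2FC of 0.33 and 0.26 (adjusted p of 0.149 and 0.336, edgeR).

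**Figure D5:**
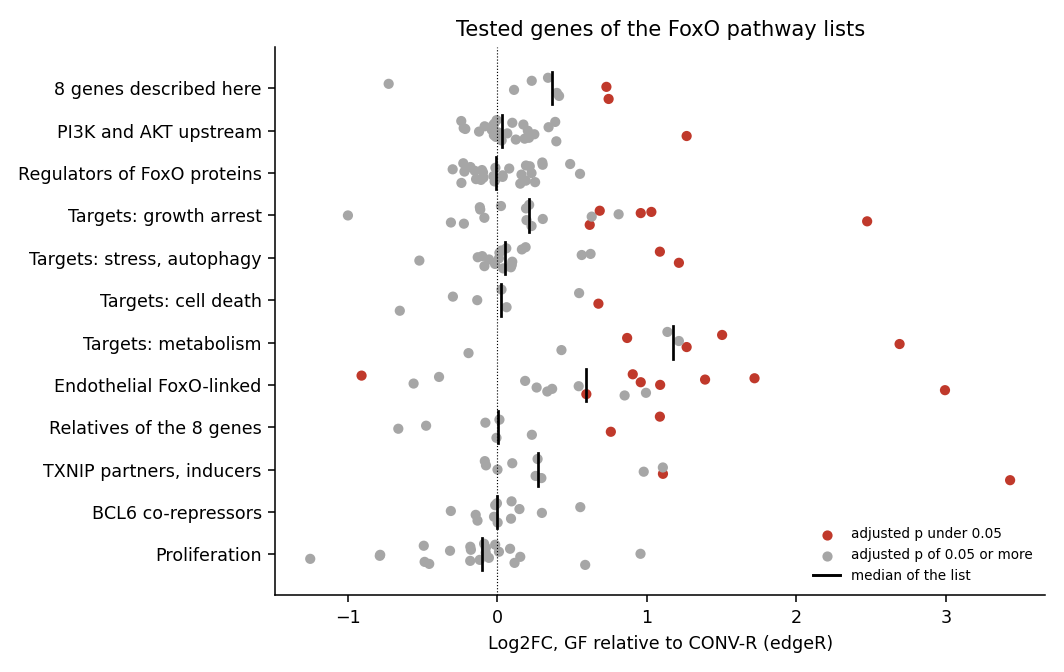
Log2FC of every tested gene of the 8 genes and the 11 lists around FoxO, with called genes in red and the median of each list as a bar. The median is 1.18 for the metabolism targets and -0.10 for the proliferation genes, and a gene in 2 lists is drawn in both.

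Relatives of the 8 genes were called singly. Of 8 tested, *Sesn2* and *Arrdc3*, an arrestin gene related to *Txnip*, were called higher (25%), beside 7.48% called of all tested genes. The Log2FC was 0.76 for *Arrdc3* (adjusted p = 0.0236, edgeR), while *Sesn1* had 0.01 and *Ccng1* -0.08 and were not called. *Arrdc3* lost its call in 6 of the 11 fits with 1 library left out (without CONV-R replicate 2, 5 or 6 or GF replicate 1, 2 or 6), with adjusted p from 0.00486 to 0.0633 (edgeR), and with the authors' normalized values. Among the 3 sestrin genes the call was thus on *Sesn2*, with *Sesn3* at 0.23 and *Sesn1* at 0.01. *Foxo6*, the fourth FoxO gene, had 3 counts in all 11 libraries and was not tested.

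Of 11 tested partners and inducers of *Txnip*, 2 rose by edgeR (18.2%), beside 7.48% called of all tested genes. DESeq2 called 3 higher, and 1 was called by edgeR when at least 10 counts were asked of every library, a filter that left out *Ddit4*. *Mlxip*, which encodes MondoA, a glucose-sensing factor known to drive *Txnip* through paired CACGAG-type motifs such as those printed above, had 618 ± 96.9 CPM (SD, n = 5) in GF and 287 ± 12.2 CPM (SD, n = 6) in CONV-R. Its Log2FC was 1.11 (adjusted p = 5.91e-06, edgeR) and its groups did not overlap. *Mlx*, its dimer partner, and *Arrdc4*, an arrestin gene known to respond to the same factor, named after their values were seen, had Log2FC of 0.26 and -0.66 (adjusted p of 0.462 and 0.132, edgeR). *Ddit4*, which encodes REDD1, a stress-induced inhibitor of mTORC1 that binds TXNIP, had a Log2FC of 3.43 (adjusted p = 0.000586, edgeR) from 7.14 ± 3.89 CPM (SD, n = 5) in GF against 0.653 ± 0.534 CPM (SD, n = 6) in CONV-R. *Nr3c1*, the glucocorticoid receptor gene, had a Log2FC of 0.00024, and *Itch*, whose product degrades TXNIP, of 0.29, neither called.

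Of 12 tested co-repressors of BCL6, edgeR and DESeq2 each called 0, with 2 at an unadjusted p under 0.05 by edgeR. With 7.48% of all tested genes called, 0 calls in so short a list cannot be told apart from that share. *Ncor1* had 564 ± 37.9 CPM (SD, n = 5) in GF and 566 ± 30.7 CPM (SD, n = 6) in CONV-R, and *Hdac7*, an endothelial deacetylase gene, had a Log2FC of 0.15 (adjusted p = 0.565, edgeR). Of 22 tested proliferation genes, both tools called 0, with 1 at an unadjusted p under 0.05 by edgeR and a median Log2FC of -0.10. The same limit holds for this count of 0. *Mcm3* and *Mcm6*, replication helicase genes with the highest mean CPM of the list, had Log2FC of 0.01 and -0.18 (adjusted p of 0.979 and 0.422, edgeR).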

How the data were processed

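Counts came from 11 libraries, 1 per mouse, grouped by the labels' treatment. The authors trimmed reads with Trim Galore, mapped them to GRCm38 with STAR and counted them with featureCounts, and left out 1 GF library with few mapped reads. They deposited raw counts, without normalization, and normalized log2 values. The paper names the DESeq method for normalization and gives no transform for these values. From them *Foxo4*, with few counts, had a Log2FC of -0.47 (limma), against -0.73 from the raw counts (edgeR). Annotation release and strand setting are not given in the sources used here. Totals of 7242717 to 16164588 counts limit the precision for weak genes. In R 4.3.3, genes passing edgeR 4.0.16's filterByExpr were TMM-scaled and compared by the quasi-likelihood test, without a covariate. Alternatives were DESeq2 1.42.0 and its size factors, limma 3.58.1 (voom, and the deposited log2 values), other filters, robust dispersion, counts thinned to equal totals, a replicate block, and each library left out. Lengths and positions came from GENCODE M21. Tests were tried on simulated data with known changes. There edgeR recovered 75.9% of the changed genes, and 4.43% of its calls were false. DESeq2 recovered 81%, with 13.4% of its calls false, and voom 74.4%, with 4.52% false. Calls by DESeq2 alone are to be read with that in mind. The 8 genes, lists and motifs were chosen with earlier results of these data known. Named genes are the 8, up to 6 called and 2 abundant uncalled genes per list, and the 3 genes most like each called one. *Angpt2*, *Fbn1*, *Foxo6*, *Mlx*, *Arrdc4* and *Gadd45a* were added after their values were seen.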

Additional observations from a re-analysis of the deposited data

Results flagged for a closer look

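*Foxo3* in CONV-R replicate 3 stood apart from the other CONV-R libraries at 41.5 CPM, with a gap to its nearest neighbour of 0.64 of the group's whole range, above Dixon's 95% critical value for its group size. It was 1 of 16 sets of values examined (8 genes in 2 groups), and chance marks about 1 in 20 such sets. Of the CONV-R libraries it correlated least with its group across all genes. Without it the Log2FC of *Foxo3* was 0.65 in place of 0.73 (adjusted p = 0.0311, edgeR).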

How the results depend on the processing

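Under 22 settings, 172 of 176 recomputed Log2FC of the 8 genes kept their direction and side of the threshold and 0 reversed, and 253 of 286 counts of called genes stayed within 1.5 times their first value. The count of called genes among the 8 was 2, and 1 with the authors' normalized log2 values in limma, 1 to 3 with each library left out (1 without GF replicate 1), and 1 without CONV-R replicate 3 and GF replicate 2, a setting chosen after seeing the data. *Foxo3* had a Log2FC of 0.58 (adjusted p = 0.139, limma) with the authors' values, 0.57 to 0.87 with each library left out and 0.65 (adjusted p = 0.0533, edgeR) without the pair of libraries. *Txnip* had 0.28 to 0.40 with each library left out and passed the threshold only without GF replicate 5. *Bcl6* was called in every setting run (adjusted p from 0.000432 to 0.0413). Over all genes, 965 calls became 1527 with DESeq2, 453 with the authors' values and 622 to 1260 with each library left out, lowest without GF replicate 6 or CONV-R replicate 4 (625). The cause was not tested for any of these. Whether replicate numbers pair the libraries could not be decided from so few pairs. Of 5 same-numbered pairs, 1 correlated above 0.1 (-0.01 to 0.20), and other pairs ran from -0.26 to 0.20. Over all genes, 1101 were called with the replicate number as a block, and 931 without it in the same 10 libraries. The fit with the block left out CONV-R replicate 3, which has no GF library of the same number. It called 2 of the 8, *Bcl6* with a Log2FC of 0.79 (adjusted p = 0.00863, edgeR) and *Foxo3* with 0.60 (adjusted p = 0.021). *Cited2* had 0.73 and *Foxo1* 0.07 with the block, neither called. In the same 10 libraries without the block, *Bcl6* had 0.79, *Foxo3* 0.65, *Cited2* 0.66 and *Foxo1* 0.08, so much of the move of *Cited2* came with the library left out. Without CONV-R replicate 3 and GF replicate 2, *Cited2* had 0.81, *Ccng2* 0.25 and *Sesn3* 0.11, none called. Among the lists, the block and the fit of genes without a filter lost the call of *Bnip3*. The upstream list had 2 calls and the regulators of FoxO proteins 1 call, each in 3 of the 11 fits with a library left out, and the BCL6 co-repressors 1 call with the block. *Foxo4* and *Cited2* had the fewest counts per library.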
